A study of Mus musculus with 11 samples.

Results

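Ciliated cells of the airway were followed through 35 listed genes of the motile cilium in lung tumors and normal lungs of mice. The genes were chosen by name, as parts of the axoneme or as known markers of ciliated cells, and the transcripts of each gene symbol were added together. Of the 35 genes, 33 had a row among the 24515 gene symbols of the count table; the levels of Dnah3 and Dnah12 are not analysed here. All mice lacked Gprc5a, a retinoic acid-induced receptor of lung epithelium, and all had received NNK, a nitrosamine of tobacco smoke, at 50 mg/kg into the peritoneum on 3 days of each of 8 weeks. ADN tumors came from mouse m335 at 4 months after NNK, mouse m368 at 6 months and mouse m350 at 7 months. ADC tumors came from mouse m335 at 4 months and from mice m372 and m378 at 7 months. Adjacent normal lung was taken from each of the 5 mice and had the same genotype and NNK exposure, so unexposed and wild-type lungs are not part of the comparison. The labels do not spell out ADN and ADC, and both tumors of mouse m335 are set against the same normal lung.

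A motile cilium beats because dynein motors slide neighboring microtubule doublets of its axoneme past each other. Outer dynein arms set beat frequency and inner dynein arms shape the waveform, while radial spokes, the nexin-dynein regulatory complex and the central apparatus coordinate the arms. In mouse lung, cells with many motile cilia line the conducting airways together with club cells and are absent from the alveoli. Their genes are switched on late in differentiation by Mcidas (multicilin), Foxj1 and factors of the RFX family, which bind sequences known as X-boxes.

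The X-box core GTTGCC was searched on both strands (GGCAAC is the same site on the other strand) in the RefSeq promoters of GRCm38.p6, each running from 250 bases before to 50 bases after a transcription start. A promoter was found for 30 of the 35 listed genes; Foxj1, Tppp3, Rsph1, Rsph4a and Dnah3 had none. The core occurred in 17 of these 30 genes (56.7%, exact 95% interval 37.4% to 74.5%) and in 3821 of all 27025 genes with a promoter (14.1%). In the last 80 bases before the start it occurred in 10 of 30 listed genes (33.3%) and in 4.51% of all genes. With the looser spelling GTTNCC, which also matches every GTTGCC, it occurred in 24 of 30 listed genes and in 48.8% of all genes. A match describes the letters in the window and does not show that a factor binds there.

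The last 80 bases before the start of 5 of these genes are shown, because the position of the core differs among them; capitals mark GTTGCC or GGCAAC, and each is written on the strand of its gene. Tekt1 (chr11:72361883-72361962, minus strand, GRCm38.p6) holds the core in each orientation, Dynlrb2 (chr8:116504935-116505014, plus strand) and Sntn (chr14:13670796-13670875, plus strand) hold GTTGCC, and Hydin (chr8:110266897-110266976, plus strand) and Cdhr3 (chr12:33092876-33092955, minus strand) hold GGCAAC.
Tekt1: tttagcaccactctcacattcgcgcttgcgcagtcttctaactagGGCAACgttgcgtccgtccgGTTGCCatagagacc
Dynlrb2: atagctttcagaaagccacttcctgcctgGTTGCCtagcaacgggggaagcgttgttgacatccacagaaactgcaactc
Sntn: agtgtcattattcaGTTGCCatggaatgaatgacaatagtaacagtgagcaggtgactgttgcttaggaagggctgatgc
Hydin: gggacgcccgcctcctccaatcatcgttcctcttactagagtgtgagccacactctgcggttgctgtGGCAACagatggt
Cdhr3: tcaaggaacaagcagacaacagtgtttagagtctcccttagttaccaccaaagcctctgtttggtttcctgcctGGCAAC
The core nearest the start abuts it in Cdhr3 and lies 7 bases before it in Hydin, 9 in Tekt1, 45 in Dynlrb2 and 60 in Sntn. Over the whole promoter searched, the dynein heavy chain genes Dnah5, Dnah9, Dnah11, Dnah1, Dnah2, Dnah6 and Dnah12 held no core in either orientation. The heavy chain genes Dnah10 and Dnah7a did hold it. Most heavy chain genes searched thus lacked the core, but its absence was not confined to them. It was also absent from Ccdc114, Rsph9, Ccdc39, Ccdc40, Spag17 and Ak7. The Ccdc114 promoter searched lies 4183 bases from the start given in the count table.

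The libraries held 19938822 to 46987587 counts, with mouse m372 giving both the shallowest (its normal lung) and the deepest (its tumor). Gprc5a, the deleted gene, had 0 to 19 counts in every library. The listed genes together held 0.0121% to 0.0852% of all counts, and Tppp3 alone supplied 26.5% to 84.3% of them. Of the 33 genes with a row, 31 passed the filter on low counts and entered the tests of 15175 genes; Mcidas had at most 6 counts and Spag6 at most 5 counts in any library. Foxj1, the defining regulator of these cells, had at least 130 counts in every library. Levels are counts relative to library size (CPM), scaled by the trimmed mean of M-values (TMM).

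The cilium genes were high in some tumors and low in others, and no single direction described all 6. Against the normal lung of the same mouse, ADN tumor m350 had 26 of 31 genes at least 2-fold higher and 1 at least 2-fold lower, against a background of 9.46% and 17.7% of all genes. Tumor ADN m335 had 18 at least 2-fold higher and 2 lower (background 10.9% and 18.3%). In tumor ADN m368, 2 were at least 2-fold higher and 16 lower (background 12.9% and 22.2%). The ADC tumors ran as unevenly. For mouse m335, 11 genes were at least 2-fold higher and 4 lower (background 17.5% and 20.7%). In mouse m372, 0 were higher and 28 lower (background 7.41% and 19.2%), and in mouse m378, 0 were higher and 20 lower (background 7.14% and 16.8%).

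The median log2 ratio of tumor over own normal lung, on CPM + 0.1, gives the size of these shifts. Among ADN tumors it was 1.20 in mouse m335, -1.05 in mouse m368 and 2.80 in mouse m350. Among ADC tumors it was 0.51 in mouse m335, -3.08 in mouse m372 and -1.17 in mouse m378. Over all tested genes the same median lay between -0.13 and 0.00 in every tumor. None of the 31 genes was higher in all 6 tumors than in the own normal lung, as 8.38% of all genes were. Instead, 25 were at least 2-fold higher in 1 tumor and at least 2-fold lower in another, which held for 16.2% of all genes tested. Levels in the 6 tumors spanned at least 8-fold for 22 of the 31 (background 17.5%). Each ratio rests on 1 tumor and 1 lung, so it has no replicate check. In bulk RNA, fewer ciliated cells and less RNA per ciliated cell cannot be told apart.

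**Figure D1:**
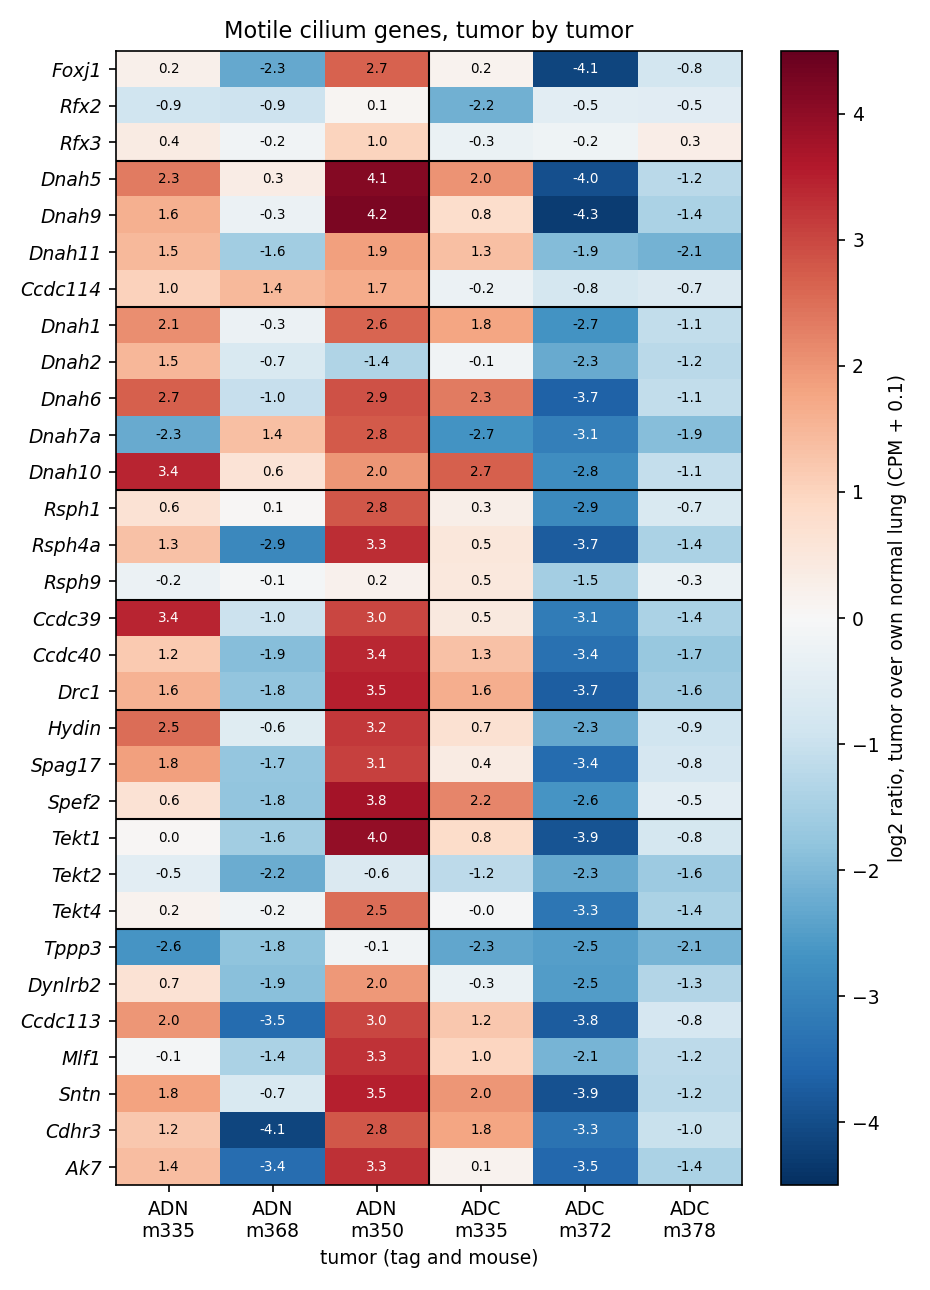
Log2 ratio of each tumor over the normal lung of the same mouse, on CPM + 0.1, for the 31 listed genes that passed the filter; columns are the 3 ADN tumors and then the 3 ADC tumors, and rows are grouped by role. The column of ADN m350 is red for 28 genes and that of ADC m372 blue for all 31, while single genes such as Tppp3 and Tekt2 stay at or below 0 in every column.

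The normal lungs differed among themselves as well. The normal lung of mouse m372 was the highest of the 5 for 27 of the 31 genes, and that of mouse m350 was the lowest for 24. Without reference to the own lung, ADN m350 was still the highest tumor for 23 genes and ADN m335 for 7, and ADC m372 was the lowest tumor for 19 and ADN m368 for 7. The summed level of the listed genes without Tppp3 was 274.2, 72.3 and 404.3 CPM in the ADN tumors of mice m335, m368 and m350, and 201.7, 48.3 and 99.8 CPM in the ADC tumors of mice m335, m372 and m378. In normal lungs it was 149, 140, 77.0, 303.6 and 193.2 CPM for mice m335, m368, m350, m372 and m378. Tumors therefore reached both above the highest and below the lowest normal lung.

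Of the regulators, Foxj1 (chromosome 11, 116330704 to 116335354, GRCm38), the forkhead factor that switches on motile cilium genes, followed this order of tumors. It stood at 37.6, 4.54 and 76.9 CPM in ADN tumors m335, m368 and m350, at 35.7, 3.55 and 18.6 CPM in ADC tumors m335, m372 and m378, and at 31.8, 22.8, 12.0, 63.9 and 33.2 CPM in normal lungs m335, m368, m350, m372 and m378. Both ADN m368 and ADC m372 lay below every normal lung, ADN m350 lay above all of them, and the groups overlapped. In counts, ADC m372 had 0.0556 of the level of its own normal lung (exact interval 0.04675 to 0.0657, for counting error only) and ADN m350 had 6.39 times that of its own (5.73 to 7.13). The fitted log2 fold change over all tumors was -0.86 ± 0.89 (SE), with an adjusted p of 0.604 in the quasi-likelihood test of edgeR.

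Rfx2 and Rfx3, the RFX factors of the list, varied less among tumors. Rfx2 was at 14.3, 8.27 and 14.0 CPM in ADN tumors m335, m368 and m350, at 5.88, 10.3 and 12.8 CPM in ADC tumors m335, m372 and m378, and at 27.0, 15.9, 13.1, 14.5 and 18.2 CPM in normal lungs m335, m368, m350, m372 and m378. It was below the own normal lung in 5 of 6 tumors (log2 fold change -0.72 ± 0.30, edgeR adjusted p = 0.167). Rfx3 ranged from 4.57 to 9.75 CPM in ADN tumors, from 3.08 to 6.44 CPM in ADC tumors and from 3.80 to 6.31 CPM in normal lungs (log2 fold change 0.20 ± 0.29, edgeR adjusted p = 0.731). Both genes are also active outside ciliated cells, and neither was at its lowest in ADC m372, where Foxj1 was: there Rfx2 stood at 2.90 and Rfx3 at 1.56 times the Foxj1 level, against 0.227 and 0.0987 times in the normal lung of that mouse. Mcidas, which starts multiciliation and is transient, had 0 to 1 counts in tumors and 0 to 6 in normal lungs, and no fold is given.

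Outer dynein arm genes included the heavy chains Dnah5, Dnah9 and Dnah11 and the docking protein Ccdc114. Dnah5 (chromosome 15, 28203766 to 28472045) stood at 14.5, 4.85 and 24.9 CPM in ADN tumors m335, m368 and m350, at 11.7, 0.508 and 3.16 CPM in ADC tumors m335, m372 and m378, and at 2.81, 3.79, 1.33, 9.31 and 7.48 CPM in normal lungs m335, m368, m350, m372 and m378. Its tumor levels covered a 49.1-fold span that enclosed all normal lungs. The log2 fold change was 1.45 ± 1.29 in ADN and -0.59 ± 1.24 in ADC tumors against normal lungs, and neither passed the threshold (edgeR adjusted p = 0.556 and 0.855). Dnah9 ranged from 2.86 to 15.1 CPM in ADN, from 0.415 to 8.01 CPM in ADC and from 0.712 to 9.76 CPM in normal lungs. Dnah11 ranged from 1.05 to 5.89 CPM in ADN, from 0.829 to 3.45 CPM in ADC and from 1.30 to 4.81 CPM in normal lungs; its exons overlap 642 bases of Cdca7l on the opposite strand, so its reads are uncertain.

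Ccdc114 stood apart from the heavy chains by its small spread within each tumor tag. It was at 6.79, 7.47 and 6.21 CPM in ADN tumors m335, m368 and m350, at 2.71, 2.75 and 2.21 CPM in ADC tumors m335, m372 and m378, and at 3.23, 2.67, 1.89, 4.81 and 3.55 CPM in normal lungs m335, m368, m350, m372 and m378. All 3 ADN tumors lay above every ADC tumor and every normal lung. It was the only one of 31 listed genes higher in all 3 ADN and lower in all 3 ADC tumors than in the own normal lung (background 0.455%). The log2 fold change was 1.34 ± 0.41 in ADN against normal lungs (edgeR adjusted p = 0.0871) and -1.84 ± 0.51 in ADC against ADN (edgeR unadjusted p = 0.00681, adjusted p = 0.706), so neither passed. The adjusted p for ADN ran from 0.00815 to 0.251 over 12 alternatives.

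**Figure D2:**
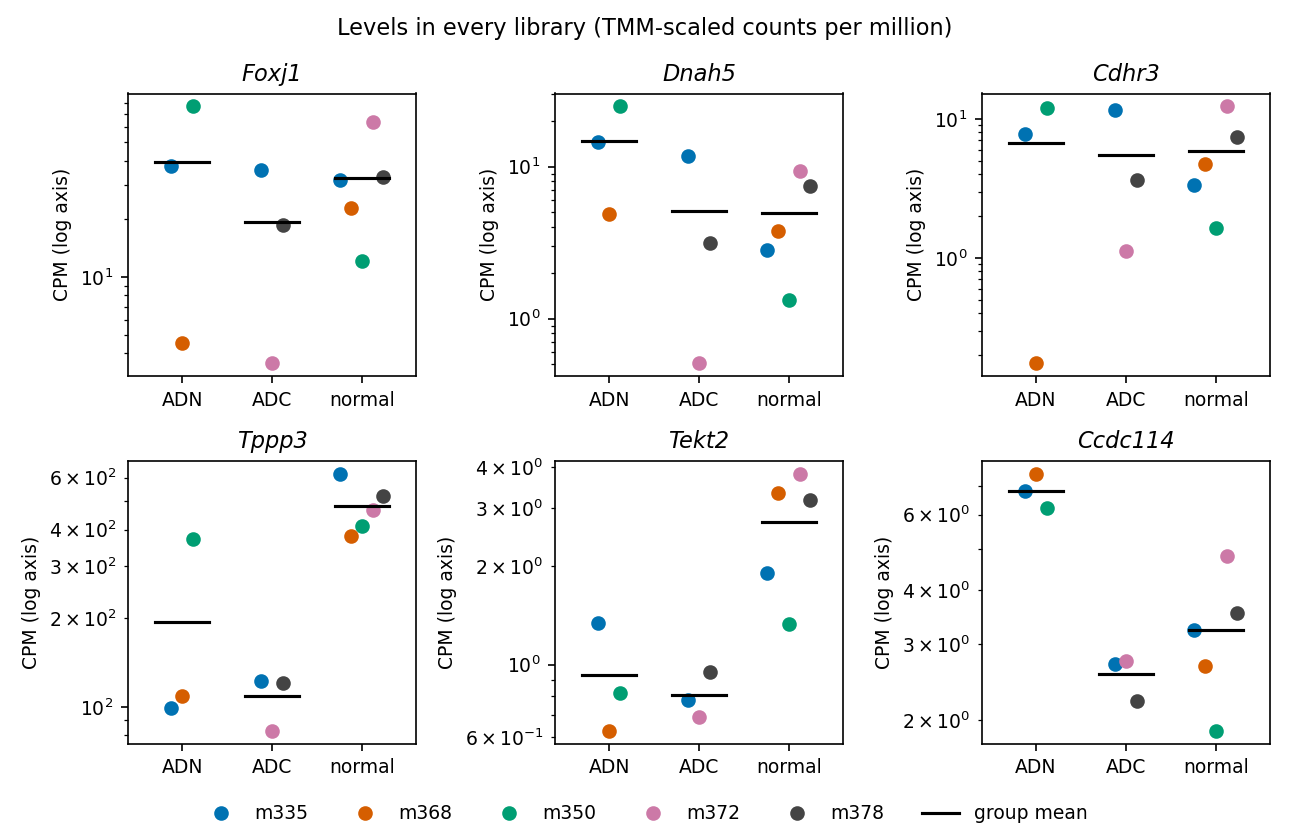
TMM-scaled CPM on log axes in every library for Foxj1, Dnah5, Cdhr3, Tppp3, Tekt2 and Ccdc114, by group (ADN, ADC, normal), with 1 color per mouse and a bar at the group mean. Foxj1, Dnah5 and Cdhr3 spread more widely among tumors than among normal lungs, Tppp3 tumors all lie below the normal lungs, and the 3 ADN tumors of Ccdc114 lie together above all other libraries.

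Inner dynein arm heavy chains followed the tumor-by-tumor pattern, with exceptions. Dnah6, which had the most counts of them, stood at 18.6, 2.65 and 18.8 CPM in ADN tumors m335, m368 and m350, at 14.4, 0.761 and 3.55 CPM in ADC tumors m335, m372 and m378, and at 2.81, 5.59, 2.51, 10.8 and 7.76 CPM in normal lungs m335, m368, m350, m372 and m378. ADN m335, ADN m350 and ADC m335 exceeded every normal lung. Dnah1 ranged from 1.57 to 7.80 CPM in ADN, 0.461 to 6.32 CPM in ADC and 0.588 to 3.50 CPM in normal lungs, and Dnah10 from 2.75 to 16.5 CPM in ADN, 0.554 to 9.94 CPM in ADC and 0.619 to 4.45 CPM in normal lungs. Dnah2 was steady in normal lungs, at 2.39 to 3.19 CPM, but reached 8.30 CPM in ADN m335, against 1.47 and 1.18 CPM in ADN m368 and m350 and 2.604, 0.577 and 1.18 CPM in ADC m335, m372 and m378. It was the only listed gene at least 2-fold lower in ADN m350 than in its own normal lung.

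Dnah7a had few counts and departed from its fellow heavy chains in mouse m335. Its rounded counts were 1, 32 and 87 in ADN tumors m335, m368 and m350, 0, 5 and 2 in ADC tumors m335, m372 and m378, and 19, 12, 12, 38 and 20 in normal lungs m335, m368, m350, m372 and m378. Both tumors of mouse m335 were thus at or near 0 for Dnah7a while Dnah5, Dnah6 and Dnah10 were above the own normal lung in both. Dnah7a has the close paralogs Dnah7b and Dnah7c. Whether the authors' counting split reads among them was not tested. In ADC tumors the log2 fold change was -3.75 ± 1.47 (edgeR adjusted p = 0.223, and 0.0478 to 0.46 over 12 alternatives).

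Radial spoke head genes split into a pair that varied and one that was even. Rsph1 stood at 29.3, 7.71 and 42.3 CPM in ADN tumors m335, m368 and m350, at 22.3, 5.44 and 6.79 CPM in ADC tumors m335, m372 and m378, and at 18.7, 7.43, 6.001, 40.1 and 10.9 CPM in normal lungs m335, m368, m350, m372 and m378. Its tumor and normal ranges were nearly the same (log2 fold change -0.02 ± 0.67, edgeR adjusted p = 0.992). Rsph4a ran from 0.349 CPM in ADN m368 to 15.03 CPM in ADN m350, from 0.508 to 3.35 CPM in ADC tumors and from 1.42 to 7.94 CPM in normal lungs. Rsph9 was at 3.68 to 7.85 CPM in ADN, 3.02 to 7.54 CPM in ADC and 4.39 to 9.27 CPM in normal lungs.

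Ccdc39 and Ccdc40, which form the molecular ruler that spaces the arms along the doublet, and Drc1, of the nexin-dynein regulatory complex, varied among tumors as well, Ccdc39 with one of the 5 widest ranges of the list. Ccdc40 stood at 11.4, 1.53 and 21.2 CPM in ADN tumors m335, m368 and m350, at 12.5, 1.22 and 3.001 CPM in ADC tumors m335, m372 and m378, and at 4.93, 5.998, 1.95, 13.5 and 10.03 CPM in normal lungs m335, m368, m350, m372 and m378. Ccdc39 was at 4.95, 0.314 and 1.46 CPM in ADN tumors m335, m368 and m350, at 0.541, 0.0461 and 0.355 CPM in ADC tumors m335, m372 and m378, and at 0.368, 0.715, 0.0928, 1.18 and 1.11 CPM in normal lungs m335, m368, m350, m372 and m378. The partners thus differed most in mouse m335, where Ccdc39 was 13.4 times its normal lung in the ADN tumor (exact interval 7.62 to 25.8) and 1.47 times in the ADC tumor (0.662 to 3.32), while Ccdc40 was at 11.4 and 12.5 CPM. Ccdc39 exons overlap 839 bases of Ttc14 on the opposite strand, and the strand setting of the counting is not given in the sources used here. Drc1 ranged from 0.803 to 15.6 CPM in ADN, 0.531 to 4.57 CPM in ADC and 1.30 to 8.08 CPM in normal lungs.

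Of the central apparatus genes, Hydin, a giant protein of the central pair, stood at 14.4, 2.02 and 12.8 CPM in ADN tumors m335, m368 and m350, at 4.06, 1.11 and 2.13 CPM in ADC tumors m335, m372 and m378, and at 2.47, 3.02, 1.33, 5.86 and 4.07 CPM in normal lungs m335, m368, m350, m372 and m378. Both ADN m335 and ADN m350 exceeded every normal lung. Hydin in ADC against ADN had a log2 fold change of -2.34 ± 0.95 (edgeR unadjusted p = 0.0392, adjusted p = 0.744). Spag17 ranged from 0.0923 to 3.64 CPM in tumors and from 0.340 to 1.997 CPM in normal lungs. Spef2 was at 0.937, 0.244 and 6.28 CPM in ADN tumors m335, m368 and m350, at 2.94, 0.184 and 0.790 CPM in ADC tumors m335, m372 and m378, and at 0.371 to 1.68 CPM in normal lungs; ADN m350 had 176 counts against 12 in its own lung, a ratio of 16.9 (exact interval 9.45 to 33.4). Spag6 had 0 to 2 counts in tumors and 1 to 5 in normal lungs.

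The tektins, filament proteins inside the doublets, did not move as a set. Tekt1 was at 2.78, 0.593 and 12.5 CPM in ADN tumors m335, m368 and m350, at 4.80, 0.300 and 1.90 CPM in ADC tumors m335, m372 and m378, and at 2.69, 1.96, 0.712, 5.86 and 3.33 CPM in normal lungs m335, m368, m350, m372 and m378. Tekt4 ranged from 2.48 to 6.07 CPM in ADN, 0.484 to 2.604 CPM in ADC and 0.990 to 5.49 CPM in normal lungs. Tekt2 differed from both: it was at 1.34, 0.628 and 0.821 CPM in ADN tumors m335, m368 and m350, at 0.778, 0.692 and 0.948 CPM in ADC tumors m335, m372 and m378, and at 1.90, 3.33, 1.33, 3.81 and 3.18 CPM in normal lungs m335, m368, m350, m372 and m378. Every tumor was below its own normal lung, a pattern that 13.8% of all genes showed, and only the normal lung of mouse m350 fell within the tumor range. The log2 fold change of Tekt2 was -1.59 ± 0.51 (edgeR adjusted p = 0.081), and the adjusted p ran from 0.00626 to 0.242 over 12 alternatives.

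Among the other ciliated cell genes, Cdhr3 (a cadherin-related surface protein, the rhinovirus C receptor in human), Ccdc113 and Ak7 (an axonemal adenylate kinase) had the widest ranges. Cdhr3 stood at 7.83, 0.174 and 12.0 CPM in ADN tumors m335, m368 and m350, at 11.6, 1.13 and 3.63 CPM in ADC tumors m335, m372 and m378, and at 3.35, 4.72, 1.64, 12.3 and 7.45 CPM in normal lungs m335, m368, m350, m372 and m378. Ak7 was at 9.30, 0.244 and 16.6 CPM in ADN tumors m335, m368 and m350, at 3.89, 0.807 and 2.29 CPM in ADC tumors m335, m372 and m378, and at 3.52, 3.64, 1.61, 10.5 and 6.25 CPM in normal lungs m335, m368, m350, m372 and m378. ADN m368 was the lowest library of all for both genes, below ADC m372. Ccdc113 stood at 3.31, 0.105 and 7.96 CPM in ADN tumors m335, m368 and m350, at 1.89, 0.254 and 1.46 CPM in ADC tumors m335, m372 and m378, and at 0.765, 2.18, 0.897, 4.68 and 2.53 CPM in normal lungs m335, m368, m350, m372 and m378. Sntn, a protein of the ciliary tip, ranged from 0.162 to 4.57 CPM in tumors and from 0.255 to 3.81 CPM in normal lungs. Mlf1 ranged from 1.05 to 11.5 CPM in tumors and from 1.11 to 5.58 CPM in normal lungs. The dynein light chain Dynlrb2 ranged from 4.26 to 23.5 CPM in tumors and from 5.94 to 25.0 CPM in normal lungs.

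The ADN tumor of mouse m368 was uneven within the list, whereas in ADC m372 28 of 31 genes were at least 2-fold lower. Unevenness was not particular to ADN m368, where log2 ratios over the own lung ran from -4.135 to 1.448. They ran from -2.642 to 3.431 in ADN m335, -1.362 to 4.228 in ADN m350 and -2.675 to 2.7 in ADC m335. In ADN m368, Cdhr3 had 5 counts against 152 in the own normal lung, a ratio of 0.0369 (exact interval 0.0118 to 0.0881). Ccdc113 had 3 against 70 (ratio 0.0481, 0.00969 to 0.147), Ak7 had 7 against 117 (0.0672, 0.0264 to 0.143) and Rsph4a had 10 against 105 (0.107, 0.0498 to 0.205). Other axonemal genes of the same library were near their own normal lung: Dnah5 had a ratio of 1.28 (0.996 to 1.64), Rsph1 1.04 (0.861 to 1.25), Rsph9 0.944 (0.754 to 1.18) and Tekt4 0.886 (0.640 to 1.22). Ccdc114 at 2.79 (2.17 to 3.63) and Dnah7a at 2.99 (1.501 to 6.38) were higher. These intervals cover counting error only, and the genes were picked after their values were seen.

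Tppp3 (chromosome 8, 105467492 to 105471422), a tubulin polymerization-promoting protein used as a ciliated cell marker, fell in tumors and was the only listed gene that passed the threshold. It stood at 98.96, 109.1 and 372.3 CPM in ADN tumors m335, m368 and m350, at 122.7, 82.97 and 120.9 CPM in ADC tumors m335, m372 and m378, and at 618.1, 379.3, 412.5, 467.2 and 518.2 CPM in normal lungs m335, m368, m350, m372 and m378. Every tumor lay below every normal lung, as for 7.91% of all genes tested, although ADN m350 came close to the lowest lung, that of mouse m368. The log2 fold change was -1.89 ± 0.33 over all tumors (edgeR adjusted p = 0.00804, and at most 0.0374 over 12 alternatives). In ADC against normal lungs it was -2.13 ± 0.43 (edgeR adjusted p = 0.0321), a call that was lost without mouse m368 (adjusted p = 0.0615), mouse m372 (0.133) or mouse m378 (0.141) within a range of 9.39e-06 to 0.141. In ADN against normal lungs it was -1.59 ± 0.46 and did not pass (edgeR adjusted p = 0.0788).

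Tppp3 did not keep pace with Foxj1. Per kilobase of transcript it averaged 134 ± 97.0 CPM in tumors and 425 ± 83.4 CPM in normal lungs (SD, n = 6 and 5), against 11.2 ± 10.5 CPM per kilobase in tumors and 12.5 ± 7.38 in normal lungs for Foxj1. The ratio of Tppp3 to Foxj1 CPM was 2.63, 24.05 and 4.84 in ADN tumors m335, m368 and m350, 3.43, 23.4 and 6.503 in ADC tumors m335, m372 and m378, and 19.45, 16.6, 34.3, 7.31 and 15.6 in normal lungs m335, m368, m350, m372 and m378. Among tumors it was highest in ADN m368 and ADC m372, which had the least Foxj1, the divisor of the ratio. Tppp3 itself was at 109.1 and 82.97 CPM in these tumors, and at 98.96, 122.7 and 120.9 CPM in ADN m335, ADC m335 and ADC m378. In mouse, Tppp3 is also known from cells outside the airway epithelium, such as those of the tendon sheath. Over all tumors edgeR called 7 of 7 endothelial markers lower, where 7.91% of all genes passed as lower. Their summed level was 486.2 to 907.1 CPM in tumors and 2538 to 4104 CPM in normal lungs. Of 7 fibroblast markers, 4 were called lower and 2 had a fold change above 0. They summed to 490.2 to 1132 CPM in tumors and 1070 to 1853 CPM in normal lungs. Alveolar type 1 markers were called lower for 3 of 7 genes, with 1 of the 7 above 0. Alveolar type 2 markers were called higher for 4 of 9 (background 3.68%), with 1 of the 9 below 0. The part of these cells in the fall of Tppp3 was not tested.

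Tested as groups, the tumors gave 1 lower and 0 higher of 31 listed genes against normal lungs, where 7.91% of all genes passed as lower and 3.68% as higher (11.6% in all). The median log2 fold change was -0.46 for the listed genes and -0.03 for all genes, with 25 of 31 below 0 (52.1% of all genes). Without the mouse as a block that median turned to 0.18, with 10 of 31 below 0. In edgeR with the block, 3 of 31 had an unadjusted p below 0.05, against 26.4% of all genes. In ADN against normal lungs edgeR called 0 of 31 (background 7.53%, 4.84% lower and 2.68% higher). An unadjusted edgeR p below 0.05 held for 2 of 31, against 24% of all genes. DESeq2 called Tppp3 lower and Ccdc114 higher, among 1869 lower and 1062 higher of 15175 genes. The median was 0.17 and 21 of 31 were above 0, where 55.3% of all genes were below 0. In ADC against normal lungs edgeR called 1 lower and 0 higher (background 4.99%, 3.98% lower and 1.01% higher). An unadjusted edgeR p below 0.05 held for 5 of 31, against 18.6% of all genes. DESeq2 called Dnah7a, Tekt2 and Tppp3 lower, among 1306 lower and 552 higher of 15175 genes. The median in ADC was -1.05 and all 31 fitted values were below 0 (49.9% of all genes). Yet 22 of the 31 were above the own normal lung in ADC m335. ADC against ADN gave 0 calls in edgeR (background 0%) and 0 in DESeq2, which called 71 lower and 54 higher of all genes. The median was -1.43, with 30 of 31 below 0 (46.8% of all genes). In edgeR, 3 of 31 had an unadjusted p below 0.05, against 6.54% of all genes. Both tumor contrasts share the normal lungs.

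**Figure D3:**
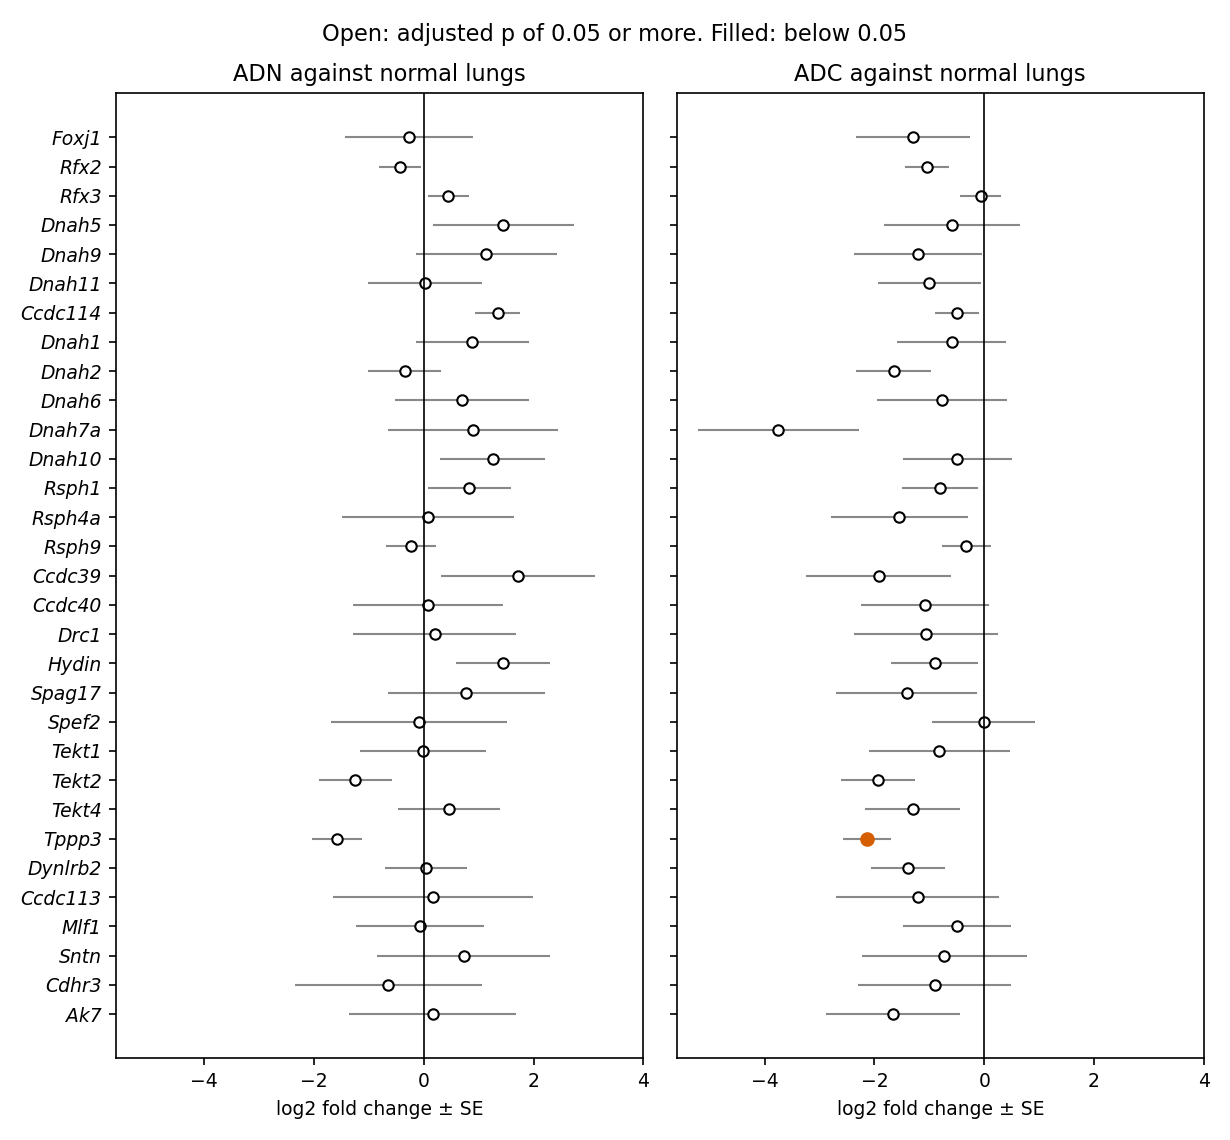
Log2 fold change ± SE of the 31 listed genes in ADN against normal lungs (left) and ADC against normal lungs (right), from edgeR with the mouse as a block. Filled points have an adjusted p below 0.05, which holds only for Tppp3 in ADC; the SE bars of most other genes reach about 1 log2 unit to either side.

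The listed genes were estimated less precisely than most: the median SE of a listed gene was 0.96 on the log2 scale over all tumors, against 0.27 for all genes tested. Leaving out 1 mouse moved the median log2 fold change of the listed genes over all tumors to 0.02 without mouse m368, 0.29 without mouse m372, -0.12 without mouse m378, -0.87 without mouse m335 and -1.13 without mouse m350. In ADN against normal lungs, where it was 0.17 with all mice, it was -0.63 without mouse m350, 0.26 without mouse m378, 0.58 without mouse m372, 0.97 without mouse m335 and 1.46 without mouse m368. In ADC against normal lungs, where it was -1.05, it was -0.11 without mouse m372, -0.70 without mouse m368 and -2.28 without mouse m335. In ADC against ADN, where it was -1.43, it was -3.03 without mouse m335, -0.65 without mouse m350 and -0.85 without mouse m372.

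Other genes of motile cilia, outside the listed ones, gave few calls over all tumors. Of 14 other axonemal dynein and docking genes tested, edgeR called 1 lower, Dnah8, and 0 higher, where 7.91% of all genes passed as lower and 3.68% as higher. An unadjusted edgeR p below 0.05 held for 1 of the 14, against 26.4% of all genes. Dnah8, an outer arm heavy chain known from mouse sperm, was at 4.92, 1.68 and 2.46 CPM in ADN tumors m335, m368 and m350, at 3.28, 2.58 and 1.62 CPM in ADC tumors m335, m372 and m378, and at 6.66, 9.51, 7.73, 9.76 and 6.31 CPM in normal lungs m335, m368, m350, m372 and m378. Every tumor lay below every normal lung, as for 7.91% of all genes (log2 fold change -1.71 ± 0.34, edgeR adjusted p = 0.014), but the adjusted p was 0.0574 without mouse m372 and 0.0631 without mouse m378, in a range of 2.05e-05 to 0.0631. Of 8 dynein arm assembly factors and 25 other axoneme and ciliated cell genes, edgeR and DESeq2 called 0. In edgeR 0 of these had an unadjusted p below 0.05, against 26.4% of all genes. Of 11 multiciliation genes both tools called 0 and 1 had an unadjusted edgeR p below 0.05. The summed level of the 29 other axoneme and ciliated cell genes was 162, 84.1 and 241.2 CPM in ADN tumors m335, m368 and m350, 100.1, 49.2 and 84.8 CPM in ADC tumors m335, m372 and m378, and 86.2, 86.3, 53.7, 178 and 119.1 CPM in normal lungs m335, m368, m350, m372 and m378, with ADN m350 highest and ADC m372 lowest as in the list itself.

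Genes of intraflagellar transport and ciliary trafficking, which build primary as well as motile cilia, did not share that order. Their summed level was 432.6, 729 and 463.8 CPM in ADN tumors m335, m368 and m350, 379.6, 410.8 and 459.2 CPM in ADC tumors m335, m372 and m378, and 327.3 to 381.1 CPM in the 5 normal lungs. All 6 tumors were above the own normal lung by this sum, and 5 of them on library totals. Ift20 alone gave 284.2 of the 729 CPM in ADN m368. On the median log2(CPM + 0.1), ADN m368 (3.39, against 3.54) and ADC m372 (3.46, against 3.66) were below the own lung. Of 28 genes tested, 2 rose over all tumors and 0 fell, where 3.68% of all genes passed as higher and 7.91% as lower. An unadjusted edgeR p below 0.05 held for 6 of the 28, against 26.4% of all genes. Ift81 was at 18.1, 21.5 and 19.1 CPM in ADN tumors m335, m368 and m350, at 8.42, 15.1 and 15.9 CPM in ADC tumors m335, m372 and m378, and at 4.68, 8.42, 8.04, 10.1 and 10.2 CPM in normal lungs m335, m368, m350, m372 and m378 (log2 fold change 1.09 ± 0.27, edgeR adjusted p = 0.0342). Ift20 was at 48.7, 284.2 and 58.9 CPM in ADN tumors m335, m368 and m350, at 43.6, 76.7 and 93.0 CPM in ADC tumors m335, m372 and m378, and at 28.1, 30.2, 35.1, 31.1 and 38.7 CPM in normal lungs m335, m368, m350, m372 and m378 (log2 fold change 1.36 ± 0.35, edgeR adjusted p = 0.0377). ADN m368, low for most of the listed genes, held the highest level of both. Neither call held on library totals (adjusted p = 0.0647 for Ift81 and 0.0508 for Ift20) or without mouse m350, m372 or m378, nor did Ift81 without mouse m368 or Ift20 without ADN m335, and over 12 alternatives the adjusted p ran from 0.00203 to 0.109 for Ift81 and from 0.000964 to 0.106 for Ift20.

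Markers of other airway epithelial cells varied among libraries too. The 10 club cell markers summed to 2802, 894.9 and 12730 CPM in ADN tumors m335, m368 and m350, to 2367, 4077 and 1781 CPM in ADC tumors m335, m372 and m378, and to 8255, 6504, 3150, 24930 and 7985 CPM in normal lungs m335, m368, m350, m372 and m378. By these sums, ADN m350 was the only tumor above its own normal lung for both club markers and the cilium genes without Tppp3, and the normal lung of mouse m372 was the highest lung for both. The comparison with the own lung depended on the scale. The median log2(CPM + 0.1) of the club markers was 6.202 and 7.12 in ADN tumors m335 and m350, 6.16, 4.21 and 4.90 in ADC tumors m335, m372 and m378, and 5.39, 4.71, 4.10, 6.06 and 4.93 in normal lungs m335, m368, m350, m372 and m378. On that scale both tumors of mouse m335 and ADN m368 were above the own normal lung as well. The 5 basal cell markers summed to 49.7 CPM in ADN m335 and 46.5 CPM in ADC m335, against 5.44 CPM in the normal lung of that mouse, and Ltf, lactoferrin of airway glands and neutrophils, was at 371.9 and 287.8 CPM in those tumors, against 11.9 CPM in the lung. ADN m368, a tumor low in most cilium genes, had 17.7 CPM of basal markers and 69.5 CPM of Ltf, against 5.35 and 2.77 CPM in its own lung. In ADN m350 Ltf was at 59.6 CPM, against 2.23 CPM in the own lung, but basal markers summed to 8.85 CPM, against 9.002 CPM. In ADC m372 and m378 basal markers were below the own lung, at 3.02 and 2.37 CPM against 16.2 and 8.95 CPM. Ltf comes from a list of cartilage and large airway markers, in which it was the only gene tested. The 4 genes of that list with a row summed to 1.02 and 3.75 CPM in ADC m372 and m378, against 3.81 and 5.23 CPM in the own lungs. Over all tumors edgeR called 0 of 10 club and 0 of 5 basal markers. It gave 6 and 0 of them an unadjusted p below 0.05, against 26.4% of all genes. DESeq2 called 3 club markers lower, 3 higher and 0 basal markers. In ADN against normal lungs edgeR called 1 club marker higher, Bpifa1 (log2 fold change 4.04 ± 0.999, edgeR adjusted p = 0.0497), and 0 basal markers (background 2.68% higher). DESeq2 in ADN called 2 club markers lower and 3 higher, and 1 basal marker, Krt15, higher, among 1869 lower and 1062 higher of all genes. In ADC edgeR called 0 of either list, and DESeq2 called 1 club marker, Cckar, lower. The part of airway tissue taken with a tumor or lung sample in the levels of cilium genes was not tested.

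**Figure D4:**
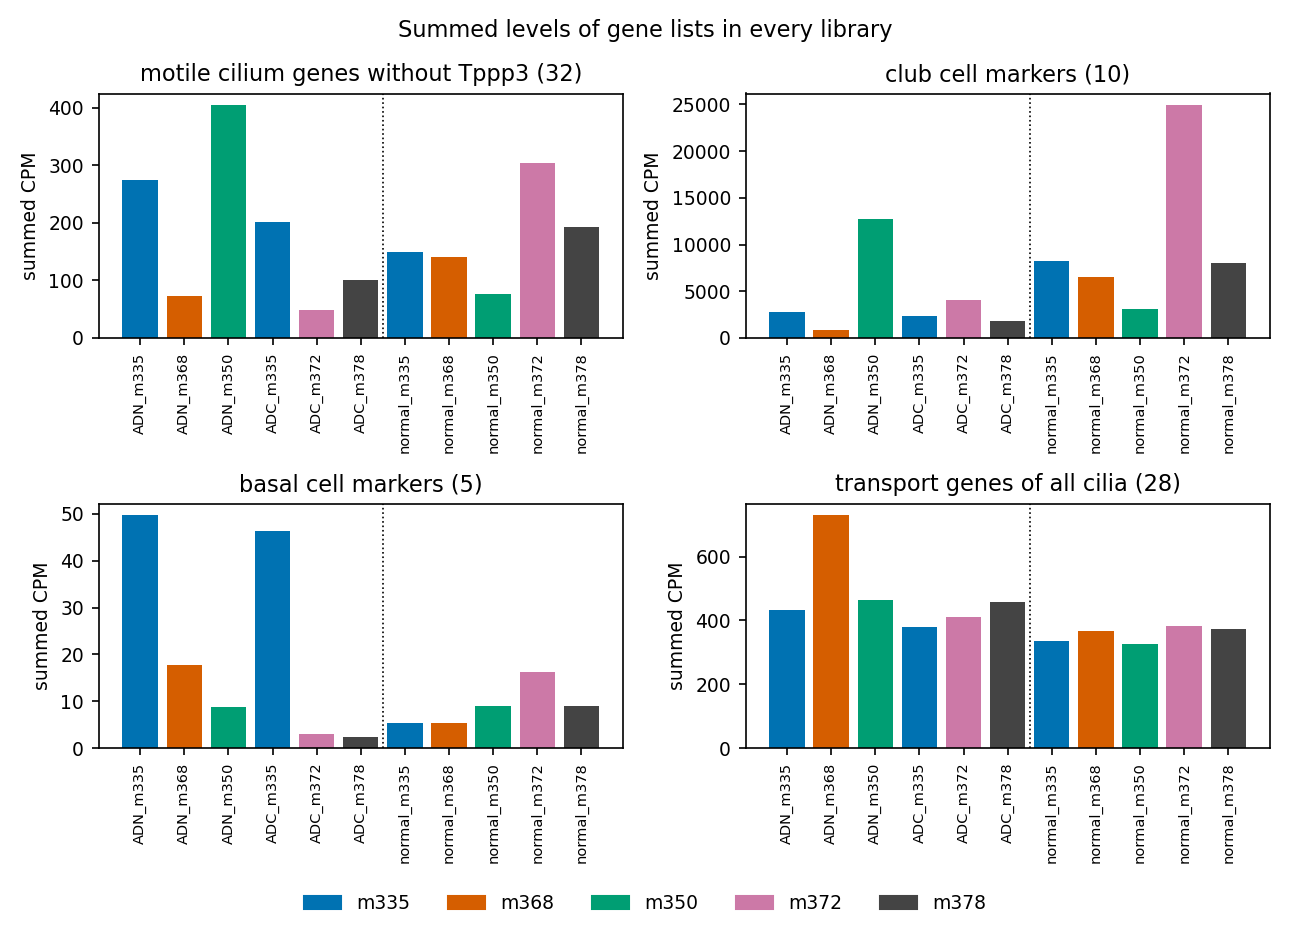
Summed TMM-scaled CPM in every library, tumors left of the dotted line and normal lungs right of it, for the listed genes without Tppp3 and for club cell, basal cell and ciliary transport genes; colors mark the mouse and each axis starts at 0. ADN m350 and normal m372 are high for both cilium and club genes, both m335 tumors are high for basal genes, and the sum of transport genes, to which Ift20 gives 284.2 CPM, is highest in ADN m368.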

How the data were processed

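Poly-A RNA of 6 tumors and 5 normal lungs was read on an Ion Proton, per the labels' protocols. The submitters' processing notes name STAR 2.4.1d, Bowtie2 2.1.0, Partek and the mouse build mm10. Which tool did what, which annotation was counted and whether strand was used is not given in the sources used here. The deposited values are the authors' expected counts, estimated per transcript and not normalized. Here 36285 transcript rows were summed to 24515 gene symbols and rounded to whole numbers; before rounding 78.4% to 86.2% of gene sums per library were whole within 0.01. Of the listed genes, 28 had 1 transcript and 5 had several.

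Groups came from the title tags. Genes were kept by filterByExpr, scaled by TMM and tested by robust quasi-likelihood in edgeR 4.0.16 under R 4.3.3, two-sided, with the mouse as a block and Benjamini-Hochberg adjustment over 15175 genes at a threshold of 0.05. ADN, ADC and normal shared 1 fit of 11 libraries; tumors pooled used a fit of 2 groups. The SE was derived from the F statistic. The pairing comes from the mouse identifiers; deviations from group means correlated between tumor and own lung at 0.24, 0.109, 0.00493, -0.0444, -0.0367 and 0.254. On simulated counts (15432 genes), this step for tumors against normal lungs recovered 100% of genes changed by 2 on the log2 scale. It recovered 96% and 92% of those lower and higher by 1. The simulation changed only well-counted genes and had no mouse effects. Its spread was smaller than that of these data, whose biological coefficient of variation was 0.459. These shares therefore do not give the power for the listed genes, and a lack of calls does not show a lack of change. Alternatives were no replicate block, RLE size factors, library totals, no filter on low counts, DESeq2 1.42.0, each mouse left out, and each m335 tumor left out.

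Named with all values were genes past the threshold, the gene with most counts of each role, the regulators Foxj1 and Rfx2, and the 5 with the widest tumor range. The regulators Rfx3 and Mcidas were given as ranges. Other genes were named after their values were seen. Of other lists, genes past the threshold over all tumors were named where they bear on cilia. The genes and lists were chosen with earlier results of these data known. Intervals on ratios and shares are exact binomial (95%) and cover counting error only, since the labels name no molecular identifiers.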

Additional observations from a re-analysis of the deposited data

Results flagged for a closer look

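A library stood far from the others of its group, by Dixon's ratio at the 95% level, in 10 of 66 groups of values examined (31 genes and 2 sums, each over 6 tumors and 5 normal lungs). Chance flags about 1 in 20 groups only where groups are independent and values normally distributed. These were CPM without a log, of genes that varied together in the same libraries, so the 10 cannot be weighed against that rate. In 7 of the 10 the library was ADN m350 as the highest tumor. For that tumor Tppp3 was at 372.3 CPM, with the next tumor at 122.7 CPM, Drc1 at 15.57 CPM (next 4.565), Tekt1 at 12.5 CPM (next 4.801), Mlf1 at 11.46 CPM (next 4.057), Sntn at 4.57 CPM (next 1.319) and Dnah7a at 3.106 CPM (next 1.117). The sum of all listed genes in ADN m350 was 776.6 CPM, with the next tumor at 373.2 CPM, a ratio at the critical value of 0.625 as rounded. In ADN m335, Dnah2 was at 8.3 CPM (next tumor 2.604) and Ccdc39 at 4.953 CPM (next 1.464). Among normal lungs, Dnah7a in mouse m372 was at 1.725 CPM, with the next lung at 0.5685 CPM.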

How the results depend on the processing

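Of 96 recounts of called genes, 86 stayed the same. Most of these set 0 against 0, as in ADC against ADN, where the main fit called 0 of all genes. That share is therefore a weak measure of stability. The only calls of the main fit were Tppp3 over all tumors and in ADC. Without the replicate block, and with DESeq2, 2 genes were lower over all tumors (Tekt2 and Tppp3); DESeq2 gave 1 lower and 1 higher in ADN and 3 lower in ADC. Leaving out libraries gave 0 to 1 lower in ADN (1 without mouse m350), 0 to 1 higher in ADN (1, Ccdc114, without ADC m335) and 0 to 1 lower in ADC (0 without mouse m368, m372 or m378). No log2 fold change that turned sign had passed the threshold. Without the block, over all tumors, it was 0.12 for Ak7, 0.18 for Ccdc113, 0.89 for Ccdc39, 0.22 for Ccdc40, 0.042 for Cdhr3, 0.74 for Dnah6, 0.19 for Rsph1 and 0.39 for Tekt1, and the median of the listed genes was 0.18; Rsph1 was 0.01 with RLE size factors and 0.008 with DESeq2. With libraries left out the values ran from -1.86 to 0.35 for Ccdc113, -1.13 to 1.03 for Ccdc39, -1.51 to 0.23 for Ccdc40, -1.88 to 0.17 for Cdhr3, -0.52 to 1.41 for Dnah5, -0.92 to 0.89 for Dnah6, -0.49 to 0.95 for Hydin, -0.64 to 0.59 for Rsph1, -1.40 to 0.32 for Tekt1 and, in ADC against ADN, -1.37 to 0.011 for Tppp3. The cause was not tested. Library totals moved the median of all genes to -0.22 over all tumors, -0.28 in ADN and -0.19 in ADC, and the median of the listed genes in ADN to -0.05. DESeq2 called 1999 genes lower and 1287 higher over all tumors, against 1201 and 558 in edgeR; in ADN 1869 and 1062 against 735 and 407; in ADC 1306 and 552 against 604 and 153; and in ADC against ADN 71 and 54 against 0. With the median of log2 levels in place of the sum, 3 rather than 5 tumors were below the own normal lung for the listed genes. Mcidas, Spag6 and Dnah7a are limited by depth.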
